A study of Mus musculus with 61 samples.

Results

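The 68 genes whose symbols begin with Kcn were studied in a table of 15149 named genes, measured by RNA sequencing in sorted cells of mouse retina. They were chosen by that prefix alone, whatever their values, and by symbol they form 22 subfamilies. The cells came from DBA/2J mice, an inbred strain with mutant Gpnmb and Tyrp1 genes in which iris pigment is shed, eye pressure rises and glaucoma follows with age. D2-Gpnmb+ mice, the controls, carry a working copy of Gpnmb on the DBA/2J background, keep the Tyrp1 mutation and are spared the glaucoma. At 4 months each strain on plain water gave 10 libraries. At 9 months, an age that the design calls pre-glaucomatous, DBA/2J on water gave 25 libraries and D2-Gpnmb+ 9. A group of 7 DBA/2J libraries at 9 months had nicotinamide, the amide form of vitamin B3 that cells turn into NAD, with a daily dose of 500 mg per kg. The sort kept Thy1.2+ cells without Cd11b, Cd11c, Cd34, Cd45.2 or GFAP on a viable-cell gate, and the labels name them retinal ganglion cells. The labels state that the eyes had no axon degeneration. They do not say which libraries are separate animals, and the p-values given here therefore reflect how far these libraries differ, which may be technical.

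Potassium channels let potassium leave the cell, and this sets the resting potential, ends each action potential and fixes how fast a neuron can fire again. Most subfamilies form pores of Kcn alpha subunits that open with voltage (Kcna, Kcnb, Kcnc, Kcnd, Kcnh, Kcnq), with calcium (Kcnma, Kcnn) or with sodium (Kcnt), that rectify inwardly (Kcnj) or that leak at rest (Kcnk). Other Kcn genes encode partners without a pore of their own (Kcnab, Kcne, Kcnip, Kcnmb) or silent subunits that change the pores they join (Kcnf, Kcng, Kcns, Kcnv). In the retina, Kcnv2 shapes the rod and cone response, Kcnj10 clears potassium through Müller glia, and Kcnc channels let inhibitory neurons fire fast.

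The libraries held 5133114 to 19501444 reads (median 9730486). Values are the deposited normalised read counts, and log2 fold changes were taken on the value plus 1, tested with limma over all genes with a Benjamini-Hochberg adjusted p under 0.05 as the threshold. The columns of the table fall into 3 stretches of 10, 18 and 33 libraries, a division made after the data were seen. The third stretch contains the whole 4-month and nicotinamide groups, but it holds only 3 of the 25 DBA/2J water libraries of 9 months (26, 27 and 28) and 3 of the 9 D2-Gpnmb+ libraries (13, 14 and 15). Age and nicotinamide effects over all libraries are therefore given beside those inside the third stretch. The Gpnmb gene checks the strain: its value was 34.7 to 129.6 in D2-Gpnmb+ at 4 months, against 3.69 to 14.5 in DBA/2J. At 9 months it was at least 38.9 in 8 of 9 D2-Gpnmb+ libraries but 11.9 in library 1, and DBA/2J on water, at 8.39 to 78.3, overlapped with it. In D2-Gpnmb+ library 8 of 9 months the female-specific transcript Xist was at 7.93, while no other library of that group was under 4875. Results that use these 2 libraries are given without them as well, where leaving them out changes a call.

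Markers of other cells were plentiful. The summed value of 11 rod markers ran from 677 to 69277 over the 61 libraries, and that of the 12 ganglion cell markers analysed of 14 listed from 35.5 to 173. Of the ganglion cell markers, Thy1 had a median of 23.9, Rbpms of 10.1 and Nefl of 9.49. Thy1, Rbpms, Nefh and Gap43 were at 0 in no library and Nefl in 1. The lowest by median were the transcription factor Pou4f1, at 0 in 21 libraries, and the transporter Slc17a6, at 0 in 24. The Kcn values are those of the whole sorted pool, in which fewer cells of a type and less RNA per cell cannot be told apart.

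All 68 Kcn genes had reads. Their mean over 61 libraries was at least 100 for 8 genes, at least 10 for 29, at least 5 for 41 and under 1 for 13, and 31 genes had a library at 0. The large-conductance calcium-activated channel Kcnma1 had a mean of 565 ± 163 (SD, n = 61). The long non-coding RNA Kcnq1ot1, which runs antisense to the channel gene Kcnq1, had 409 ± 164. This RNA is annotated as a single exon of 93092 bases and encodes no channel. Both means are uncorrected for length and do not rank the genes. Whether reads were counted by strand is not given in the sources used here. Corrected for exon length, the small accessory subunit Kcne2 led with a mean of 65.4 per kb. The ether-a-go-go channel Kcnh5 had 45.6, the silent subunit Kcnv2 34.3, Kcnma1 33.3 and the glial inward rectifier Kcnj10 26.3. On the same scale Kcnq1ot1 had 4.39.

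Levels between genes were compared as mean normalised read count per kb of exon, and the values with a standard deviation (SD, n = 61) are the uncorrected means of single genes. Among Shaker-type genes Kcna5 led with 21.7 per kb, Kcna4 and Kcna2 were close to each other with 4.49 and 4.44, and Kcna3 was lowest with 0.785. Kcna5 and Kcna2 had means of 62.1 ± 23.3 and 52.9 ± 28.9. Kcnb2, a delayed rectifier, had 0.805 per kb. Of the fast Kcnc channels, Kcnc1 stood at 8.55 per kb, above Kcnc2 at 1.23 and Kcnc4 at 0.578. The A-type channel Kcnd3 had 6.45 per kb and a mean of 61.8 ± 46.8, while Kcnd1 had 1.58 per kb and Kcnd2 0.083. Kcnh5 led its subfamily, with Kcnh2 next at 10.2 per kb, Kcnh6 at 7.502 and Kcnh8 lowest at 0.0711. Kcnq3, an M-current channel, was low with 0.0245 per kb. The standard deviations mix groups and stretches.

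Inward rectifiers were led by Kcnj10 and Kcnj14 with 26.3 and 22.98 per kb, followed by Kcnj9, a G protein-gated channel, with 16.5. Their uncorrected means were 142 ± 139, 62.4 ± 61.9 and 70.9 ± 24.5. The other 8 Kcnj genes had between 0.37 and 4.54 per kb. Of the leak channels, Kcnk1 had 16.9 per kb and Kcnk3 10.3, and Kcnk9, the lowest, 0.0646. The sodium-activated channels Kcnt1 and Kcnt2 had 2.52 and 2.19 per kb, and the small-conductance channels Kcnn2, Kcnn1 and Kcnn3 had 1.32, 0.454 and 0.172.

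Accessory genes covered a similar range per kb. Kcnab2, a beta subunit of Kcna channels, had 19.1 per kb, Kcnab3 2.35 and Kcnab1 1.33. Kcne2 had a mean of 116 ± 46.2 beside its 65.4 per kb, and the 2 other Kcne genes, Kcne1l and Kcne4, had 1.86 and 0.136 per kb. The Kcnip calcium sensors, which bind Kcnd channels, were led by Kcnip3 with 7.41 per kb, and Kcnip1 was lowest with 1.09. Kcnmb2, a beta subunit of Kcnma1, had 3.39 per kb, Kcnmb4 and Kcnmb1 had 0.283 and 0.248, and Kcnrg, a regulator that lacks a pore, had 4.44. Of the silent subunits, Kcnv2 had a mean of 175 ± 117 beside its 34.3 per kb and Kcng4 had 2.32 per kb, while Kcnf1, Kcng2, Kcng3 and Kcns2 had between 0.0674 and 0.16.

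**Figure D1:**
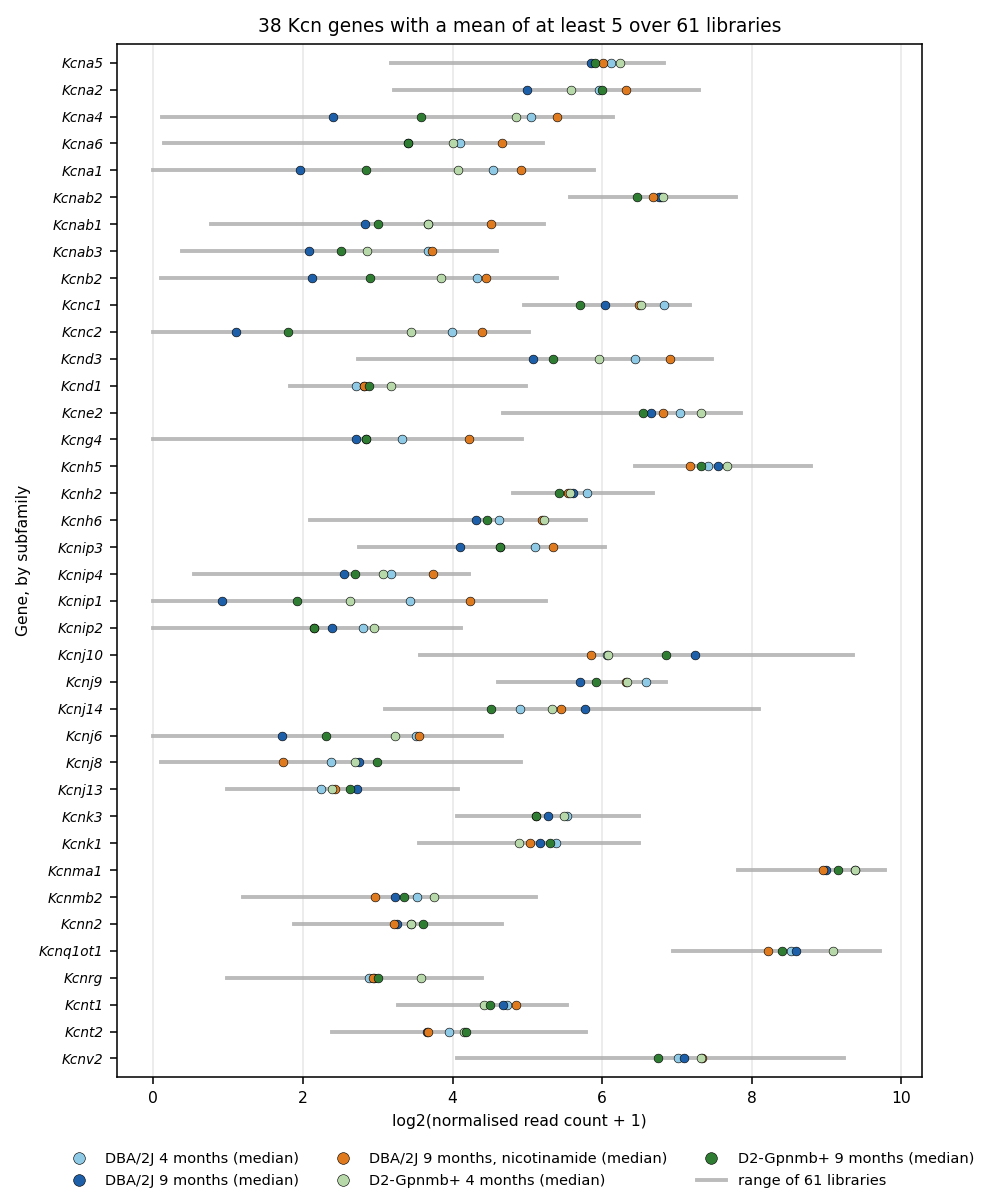
Level of 38 Kcn genes with a mean of at least 5, on the axis log2 of the normalised read count plus 1. Points are group medians and grey bars the range of the 61 libraries; the axis is not corrected for gene length, so levels are compared within a gene, and the medians of Kcna1, Kcna4, Kcnc2 and Kcnip1 are lowest in DBA/2J of 9 months on water.

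Between 4 and 9 months of age in DBA/2J, most Kcn genes that changed were lower at 9 months. Of 56 tested, 21 fell and 2 rose past an adjusted p of 0.05 (limma). That is 41.1% of the Kcn genes tested, where 22.4% of all 13587 genes were called, 13.2% as lower and 9.25% as higher. The median log2 fold change was -0.44 over the 56 Kcn genes and 0.02 over all genes. On recovered reads, edgeR and DESeq2 each called 19 of the 56 (33.9%), 16 lower and 3 higher, beside 23.4% and 27.3% of all genes. Inside the third stretch, with 10 libraries against 3, 0 of 58 Kcn genes passed, against 0.263% of all genes. There 8 Kcn genes had an unadjusted p under 0.05, as did 10.7% of all genes. The median there was -0.17, and 20 of the 23 genes called over all libraries had the same sign. The third-stretch libraries are part of the fit that called these genes, so agreement in sign is partly built in. The share with the same sign among all called genes was not computed. For these 23 the median size was 1.21 over all libraries and 0.37, in the same direction, inside the third stretch. With the stretch as a covariate the fold changes are those of the third stretch, where all 4-month libraries lie, and only their errors differ. In that fit 0 Kcn genes passed as well, beside 0.0589% of all genes. Age and stretch cannot be told apart in the 22 libraries of 9 months outside the third stretch.

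**Figure D2:**
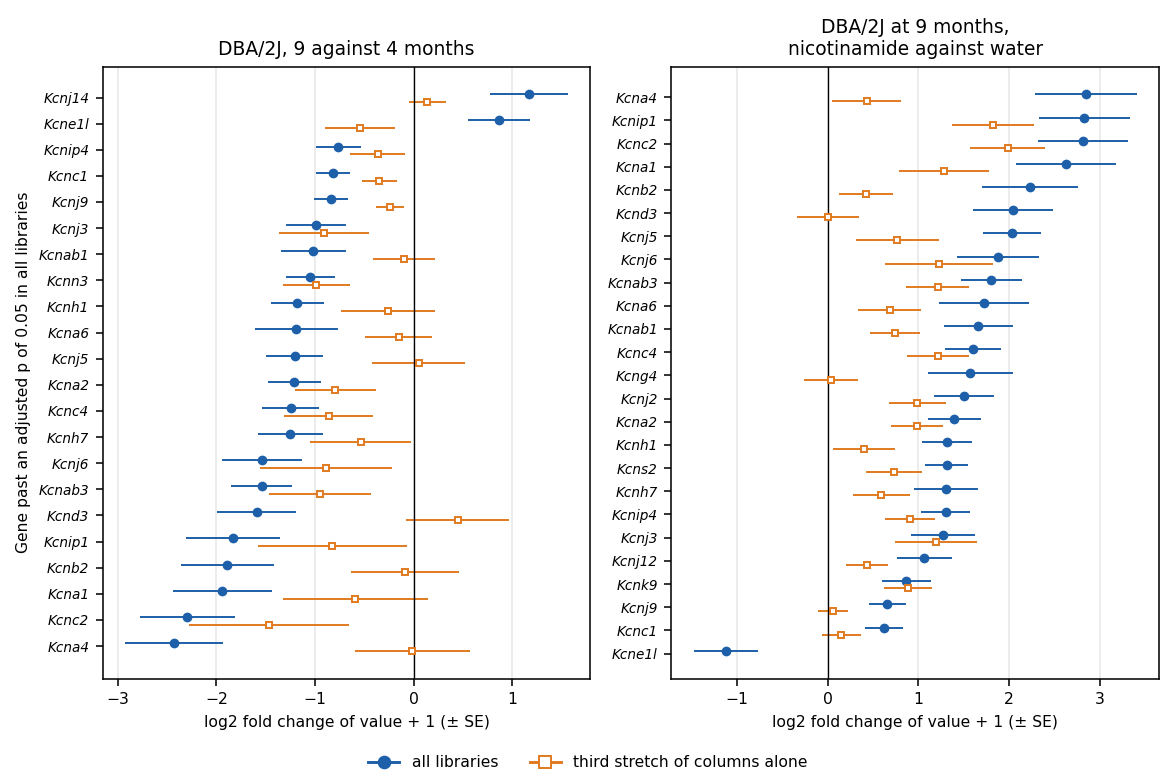
Log2 fold change with its standard error for Kcn genes past an adjusted p of 0.05 in DBA/2J with age (left, 22 genes) and with nicotinamide (right, 25 genes). Filled points use all libraries, those of the third stretch among them, and open points the third stretch alone. Open points lie mostly on the same side of 0 and nearer to it, and Kcnd3, Kcnj5 and Kcne1l change side on the left.

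Shaker-type genes, which set spike threshold and axonal excitability, fell in 4 of 6. Kcna4, an inactivating channel (chr2:107290639-107298502 on GRCm38, plus strand), ran from 7.05 to 70.1 (median 32.2) at 4 months and from 0.086 to 58.1 (median 4.27) at 9 months. All but 1 of the 25 older libraries were at most 21.5, and the exception was library 27 of the third stretch at 58.1. The log2 fold change was -2.43 ± 0.5 (SE, limma adjusted p = 0.000864), against -0.014 ± 0.58 inside the third stretch, where the 3 older libraries read 21.5, 58.1 and 17.6. Kcna1, the low-threshold channel of axons (chr6:126640397-126646384, minus strand), went from 2.14 to 40.1 (median 22.4) at 4 months and from 0.102 to 39.7 (median 2.88) at 9 months, so the groups overlapped. Its change was -1.94 ± 0.5 (limma adjusted p = 0.0056), or -0.59 ± 0.73 with libraries 26 to 28 at 9.502, 22.2 and 5.06. Kcna2, its usual partner (chr3:107101146-107115005, plus strand), stood from 31.9 to 155 (median 61) and then from 8.27 to 64.2 (median 30.8), a change of -1.21 ± 0.27 (limma adjusted p = 0.00166). Here the third stretch gave -0.80 ± 0.41, the nearest of the 3 to the pooled value. Library 27, with 64.2, was again above libraries 26 and 28. Kcna6 changed by -1.19 ± 0.42 (limma adjusted p = 0.0376), and 39.6% of its exons overlap an antisense transcript. Kcna3 and Kcna5 did not pass, with -0.46 and -0.43.

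Of the 3 beta subunits that bind these channels, Kcnab1 and Kcnab3 fell. Kcnab3 ran from 2.27 to 23.04 (median 11.7) at 4 months and from 0.302 to 9.903 (median 3.21) at 9 months, and fell with -1.54 ± 0.31 on the log2 scale (limma adjusted p = 0.00072). In the third stretch it gave -0.95 ± 0.52. For Kcnab1 the change was -1.02 over all libraries and -0.10 in the third stretch. Kcnab2, the highest of the 3 per kb, was at -0.046.

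The fast-repolarising channels Kcnc1, Kcnc2 and Kcnc4 fell, as did 4 of the 11 Kcnj genes tested. Promoter windows of 2 of the largest changes among them, Kcnc2 and Kcnj6, and of Kcnj9, higher than both per kb, are shown because these genes were called together with age. They come from RefSeq on GRCm38.p6, run from 250 bases before to 50 after a transcript start, and were matched for 49 of the 68 Kcn genes. Capitals mark the motif CAGCACC, a part of the RE1 element bound by the repressor REST, read on either strand (as GGTGCTG on the opposite one) in Kcnc2 and Kcnj6. In Kcnj9 they mark TAATCC, the core bound by OTX2 and CRX, here as GGATTA. The Kcnc2 window is chr10:112269767-112270066 on the plus strand, 1 of 4 windows of that gene, with the motif starting 38 bases before the transcript start. The Kcnj6 window is chr16:94856641-94856940 on the minus strand, 1 of 2, with the motif 162 bases before. The Kcnj9 window is chr1:172329273-172329572 on the minus strand, with the motif 97 bases before.
Kcnc2: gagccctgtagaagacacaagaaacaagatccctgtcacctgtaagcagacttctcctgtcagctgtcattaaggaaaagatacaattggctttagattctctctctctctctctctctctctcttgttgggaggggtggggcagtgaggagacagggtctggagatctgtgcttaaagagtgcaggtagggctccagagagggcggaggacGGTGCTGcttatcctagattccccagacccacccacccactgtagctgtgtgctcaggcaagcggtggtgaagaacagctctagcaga
Kcnj6: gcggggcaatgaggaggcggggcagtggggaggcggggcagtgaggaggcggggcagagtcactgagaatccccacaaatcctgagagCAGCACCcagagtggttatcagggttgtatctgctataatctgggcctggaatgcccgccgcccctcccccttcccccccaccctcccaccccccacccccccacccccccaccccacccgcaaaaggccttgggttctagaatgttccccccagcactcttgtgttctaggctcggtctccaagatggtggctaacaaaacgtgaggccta
Kcnj9: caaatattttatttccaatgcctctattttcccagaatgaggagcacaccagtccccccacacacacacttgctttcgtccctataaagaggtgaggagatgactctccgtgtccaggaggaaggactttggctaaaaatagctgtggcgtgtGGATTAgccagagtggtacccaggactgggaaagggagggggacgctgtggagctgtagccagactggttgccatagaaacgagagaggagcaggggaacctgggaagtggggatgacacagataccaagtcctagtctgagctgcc
Among all 32851 windows, 7.14% held CAGCACC and 7.06% held TAATCC, against 12.5% and 4.69% of the 64 Kcn windows. A match describes letters only and shows no binding.

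Kcnc2 (Kv3.2; chr10:112271121-112467024 on GRCm38, plus strand) showed the widest spread of the subfamily. Its values ran from 0.504 to 31.2 (median 14.9) at 4 months and from 0 to 25.5 (median 1.15) at 9 months, for a log2 fold change of -2.29 ± 0.48 (limma adjusted p = 0.00101). The ranges overlapped at both ends, since 1 young library was under 1 and 1 old library reached 25.5. In the third stretch libraries 26 to 28 read 1.94, 8.97 and 2.53, and the change was -1.46 ± 0.81, the largest decrease there among the called genes. Kcnc4 gave -1.25 and -0.86 and Kcnc1 -0.82 and -0.35, each first over all libraries and then inside the third stretch. These 3 thus kept a negative sign in both.

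Kcnd3, the Kv4.3 channel of the A-type current, went the other way inside the stretch. It ran from 26.3 to 175 (median 85.4) at 4 months and from 5.68 to 154 (median 32.6) at 9 months, a change of -1.59 ± 0.40 (limma adjusted p = 0.00437). Libraries 26 to 28 read 154, 123 and 71.5, all inside the younger range and the first 2 above its median, and the third stretch gave 0.44 ± 0.52 (limma adjusted p = 0.831). Its sensor Kcnip1 ran from 0.126 to 24.9 (median 9.76) and then from 0 to 19.7 (median 0.895), with -1.83 ± 0.47 over all libraries (limma adjusted p = 0.00549) and -0.83 ± 0.76 in the third stretch. On recovered reads edgeR and DESeq2 left Kcnip1 short of the threshold, with adjusted p = 0.0531 and 0.0788. Kcnip4 fell by 0.76 over all libraries, and Kcnip2 and Kcnip3 did not pass. Kcnd1 was at 0.43, not called.

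Kcnb2 ran from 4.41 to 41.2 (median 19.03) at 4 months and from 0.0756 to 30.9 (median 3.36) at 9 months. The change of -1.89 ± 0.47 (limma adjusted p = 0.00433) shrank to -0.085 ± 0.55 inside the third stretch, where libraries 26 to 28 held 9.502, 30.9 and 11.7. Among Kcnh genes, Kcnh7 (Erg3) ran from 1.46 to 19.1 (median 7.32) and then from 0.0699 to 9.01 (median 2.13), a change of -1.25 ± 0.33 (limma adjusted p = 0.00643), or -0.54 in the third stretch. Kcnh1 fell too, with -1.18 and -0.26, while Kcnh5 and Kcnh2, the highest of the subfamily per kb, were not called at 0.13 and -0.063.

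Of the G protein-gated inward rectifiers, which slow neurons when inhibitory receptors are active, all 4 (Kcnj3, Kcnj5, Kcnj6 and Kcnj9) fell. Kcnj6 (Girk2) ran from 1.13 to 19.6 (median 10.4) at 4 months and from 0.0871 to 14.8 (median 2.303) at 9 months, a change of -1.54 ± 0.40 (limma adjusted p = 0.00596) and of -0.89 ± 0.66 in the third stretch, where the 3 older libraries held 1.75, 10.8 and 2.33. Kcnj9 (Girk3) went from 73.5 to 114 (median 94.7) and then from 23.4 to 91.7 (median 51.2). Its change of -0.84 ± 0.17 had the smallest standard error of the 4 (limma adjusted p = 0.000776), and the third stretch gave -0.24 ± 0.14. Kcnj3 gave -0.99 and -0.91, and 31.1% of its exons overlap a transcript on the other strand. Kcnj5 gave -1.21 and 0.053, with values in single reads: its median at 9 months was 0.

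Kcnj14 and Kcne1l were the 2 genes that rose. Kcnj14 (Kir2.4; chr7:45816460-45824782, minus strand) ran from 19.6 to 41.2 (median 28.8) at 4 months and from 8.65 to 272 (median 53.8) at 9 months, with a change of 1.17 ± 0.40 (limma adjusted p = 0.0311). The highest values were all in the second stretch, where it ran from 8.65 to 272, against a range from 46.4 to 63.8 in the first and 32.8, 29.96 and 32.2 in the third. Its change within the third stretch was 0.14 ± 0.19. The call was kept in 8 of 10 fits that each left out a 4-month library, and without the first stretch it was lost (1.26, limma adjusted p = 0.058). Kcne1l, an X-linked accessory subunit, rose with 0.87 ± 0.31 (limma adjusted p = 0.0407) at medians of 1.04 and 2.88 and gave -0.54 in the third stretch. Kcnn3, a small-conductance channel, fell too, with -1.05 and -0.99. No Kcng, Kcnk, Kcnma, Kcnmb, Kcnt or Kcnv gene was called with age, nor Kcnq1ot1 or Kcnrg.

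**Figure D3:**
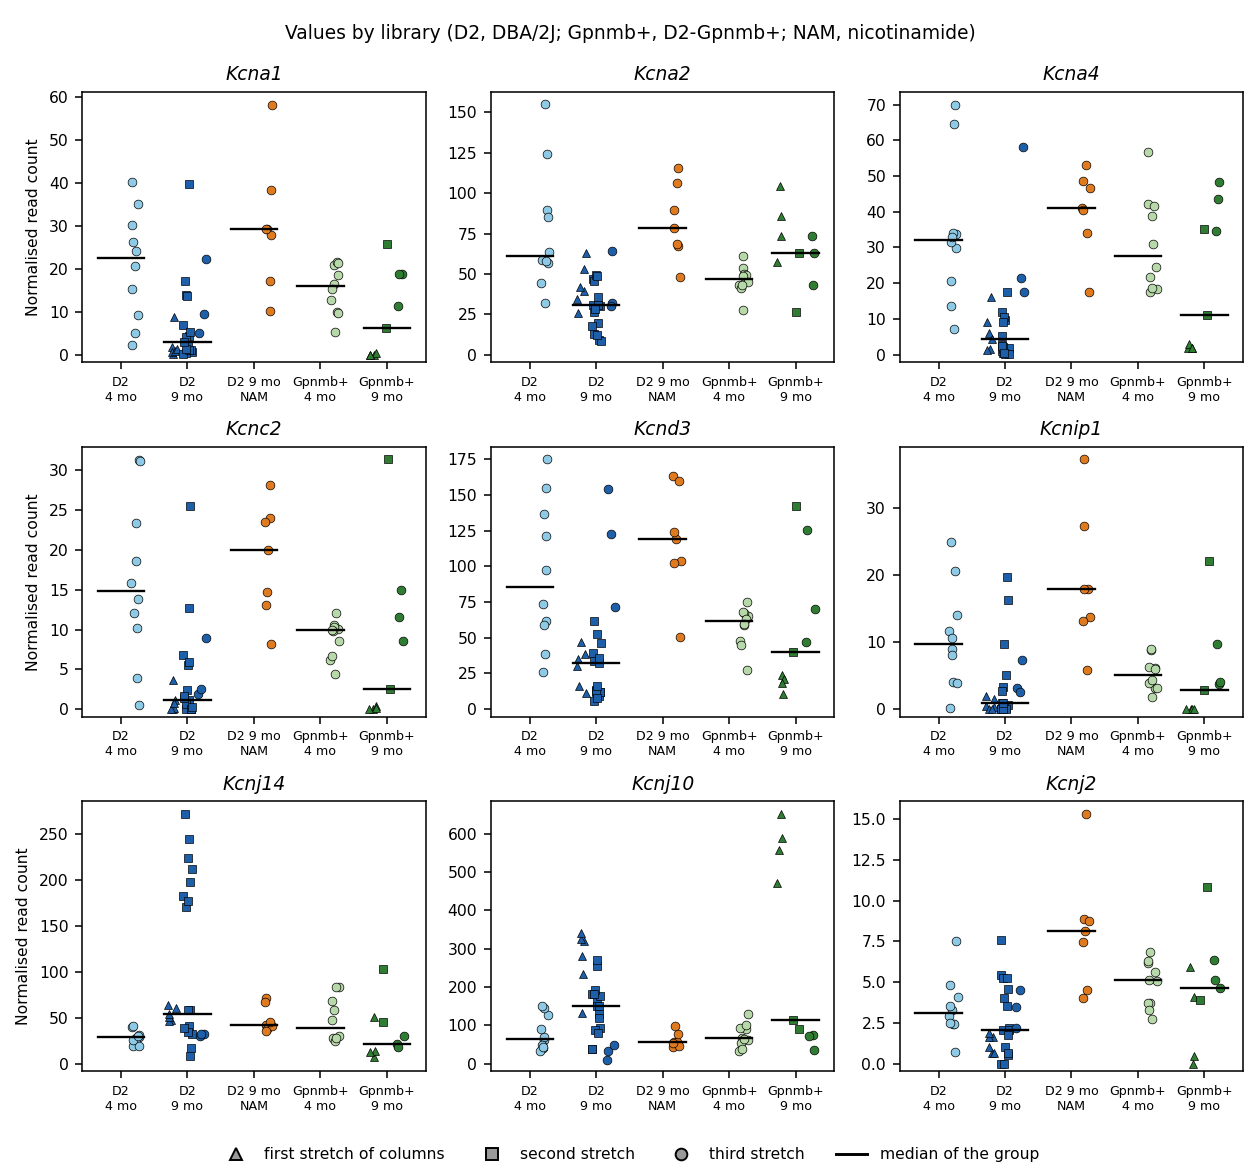
Normalised read count of 9 Kcn genes in each of the 61 libraries by group, on a linear axis; the symbol gives the stretch of columns and the bar the group median. Nicotinamide medians of Kcna1, Kcna4, Kcnc2, Kcnd3 and Kcnip1 lie above those of DBA/2J at 9 months on water, and Kcnj14 is above 150 only in the second stretch.

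Markers of other cells moved with these decreases. Of 8 amacrine markers tested, 7 were lower at 9 months in DBA/2J, with a median log2 fold change of -2.43 over the list and of -0.91 with 0 called inside the third stretch. Their summed value ran from 131 to 1169 (median 502) at 4 months and from 41.5 to 509.6 (median 95.1) at 9 months, and none of the 8 was at 0 throughout a group. Rods had 4 of 11 markers higher (median 1.05), microglia and macrophages 7 of 8 higher (1.42), Müller glia 3 of 10 higher (0.56) and astrocytes 2 of 3 higher (0.93). Bipolar cells had 3 of 11 lower (-0.22), cones 2 of 9 lower (-0.17) and ganglion cells 2 of 10 lower (-0.49). Endothelium with pericytes and pigment epithelium each had 1 marker higher, of 9 and 3 tested, and horizontal cells 0 of 3 called. Of all genes, 9.25% were called higher and 13.2% lower. None of these lists had a called marker (0) inside the third stretch. There the medians of Müller glia, cones, endothelium with pericytes and pigment epithelium changed sign, to -1.33, 0.23, -0.37 and -0.40. Rods gave 0.03, microglia and macrophages 0.19 (1 tested), astrocytes 0.26, bipolar cells -0.12, ganglion cells -0.27 and horizontal cells -0.09. The part of these shifts in the Kcn results was not tested.

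In DBA/2J at 9 months, Kcn genes were mostly higher with nicotinamide than with water. Of 58 tested, 24 rose and 1 fell (limma), which is 43.1% of them, where 15.1% of all 13925 genes were called, 9.78% as higher and 5.34% as lower. The median log2 fold change was 0.41 over the Kcn genes and -0.03 over all genes. DESeq2 on recovered reads called 18 higher and 3 lower, beside 21.1% of all genes. This comparison uses the same 9-month water libraries as that of age in DBA/2J and those between strains, so none of them is independent of the others. Inside the third stretch, with 7 libraries against 3, 0 of 55 Kcn genes passed and 24 had an unadjusted p under 0.05, where 0.00749% of all genes passed and 16.8% had an unadjusted p under 0.05. Of the 25 called genes, 24 were tested there and all 24 kept their sign, with a median size of 0.75 against 1.57 over all libraries. All 7 nicotinamide libraries and these 3 water libraries also entered the fit that called the genes. Agreement in sign is therefore partly built in, and its share among all called genes was not computed. With the stretch as a covariate 0 genes of the whole table passed (0%), and 12 Kcn genes had an unadjusted p under 0.05, beside 5.29% of all genes. The fold changes of that fit are those of the third stretch, where all nicotinamide libraries lie, and only their errors differ. Treatment and stretch cannot be told apart outside the third stretch.

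The Shaker-type genes Kcna1, Kcna2, Kcna4 and Kcna6 all rose. Kcna1 ran from 10.2 to 58.1 (median 29.1) with nicotinamide, so that each treated library was above the water median of 2.88. The change was 2.63 ± 0.55 (limma adjusted p = 0.00156), and 1.28 ± 0.5 inside the third stretch. Kcna4 ran from 17.7 to 53.2 (median 40.9), with 2.85 ± 0.56 over all libraries (limma adjusted p = 0.000957). Its third-stretch value was 0.43 ± 0.38, and the treated values lay within the water values of 21.5, 58.1 and 17.6. Kcna6 ran from 11.5 to 35.2 (median 24.4) against a range from 0.107 to 28.4 (median 9.55) on water, a change of 1.72 ± 0.49 (limma adjusted p = 0.0172) and of 0.68 in the third stretch. Kcna2 gave 1.40 and 0.99, and ran from 48.3 to 116 (median 78.5). Of the beta subunits, Kcnab3 ran from 5.74 to 19.9 (median 12.2) and rose with 1.81 ± 0.33 (limma adjusted p = 0.000494), or 1.21 ± 0.35 in the third stretch, and Kcnab1 gave 1.66 and 0.74.

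Kcnc2 ran from 8.12 to 28.2 (median 19.99) with nicotinamide, against a median of 1.15 on water. Its change was 2.81 ± 0.5 (limma adjusted p = 0.000362). Within the third stretch it was 1.98 ± 0.42 (limma adjusted p = 0.0886), and 6 of the 7 treated libraries were above the highest of the 3 water libraries. Kcnc4 gave 1.60 and 1.22, and Kcnc1 0.62 and 0.15. Kcnip1 ran from 5.85 to 37.2 (median 17.9), with 2.83 ± 0.5 over all libraries (limma adjusted p = 0.000399) and 1.82 ± 0.45 inside the third stretch, where water libraries held 3.103, 7.38 and 2.63. Kcnip4 gave 1.30 and 0.90. Kcnd3 ran from 50.5 to 163 (median 119) and rose with 2.04 ± 0.44 over all libraries (limma adjusted p = 0.00212), yet its third-stretch value was 0.0045 ± 0.34. Kcnb2 ran from 13.2 to 27.4 (median 20.8), with 2.23 ± 0.53 (limma adjusted p = 0.00441) and 0.43 ± 0.30 in the third stretch. With DESeq2, Kcnb2 had 1.71 and an adjusted p = 0.0576.

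Inward rectifiers rose in 6 of 11 Kcnj genes tested. Kcnj6 ran from 2.6 to 24.2 (median 10.7), with 1.88 ± 0.45 (limma adjusted p = 0.00484) and 1.23 ± 0.60 inside the third stretch. Kcnj5 ran from 0.975 to 8.25 (median 5.66) against a water median of 0, with 2.03 ± 0.32 (limma adjusted p = 0.000176) and 0.77 ± 0.46 inside the third stretch. DESeq2 gave Kcnj5 2.99 with an adjusted p = 0.063. Kcnj2 and Kcnj12, the classical strong rectifiers, gave 1.5 and 1.06, Kcnj3 1.27 and Kcnj9 0.66, and in the third stretch these were 0.99, 0.44, 1.19 and 0.056. The glial channel Kcnj10 was not called at -1.05, and inside the third stretch its value had the opposite sign, 1.16. The median of the 10 Müller glia markers had the same signs, -0.95 and 0.97, and its part in the result was not tested. Kcnh1, Kcnh7, Kcng4, Kcnk9 and Kcns2 also rose, by 0.87 to 1.57 on the log2 scale, and Kcne1l fell by 1.12. Kcnk9 and Kcns2 had means of 0.794 and 0.896 over the 61 libraries and were at 0 in 22 and 20 of them. Both were too low to be tested with age in DBA/2J. Here the filter asked for a value of 1 in 7 libraries, which the nicotinamide group alone could meet, so these 2 rises carry little weight. Kcnma1, Kcnh5 and Kcnv2 were not called, with -0.01, -0.38 and 0.20.

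The calls inside the third stretch depended on library 27. Without it 8 Kcn genes passed for nicotinamide (limma, among 375 of all genes): Kcna2, Kcnab3, Kcnb2, Kcnc2, Kcnh6, Kcnip1 and Kcnip4 rose and Kcnj8, a pore of ATP-sensitive channels, fell. Kcnc2 then gave 2.53 (limma adjusted p = 0.0133) and Kcnip1 2.20 (limma adjusted p = 0.0459). Only libraries 26 and 28 stand for water in that fit. For age, leaving out library 27 gave 4 calls among 243 of all genes, among them Kcnh5 and Kcnt2, which were higher, and Kcnip2, which was lower. Its amacrine marker sum was 376, where libraries 26 and 28 had 147 and 141.

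Amacrine markers moved with nicotinamide as well, with 7 of 8 tested higher, a median of 2.71 over all libraries, and 1.38 with 0 called inside the third stretch. Their sum ran from 199 to 1188 (median 629) with nicotinamide. Cone markers were higher in 7 of 9 (median 0.99) and ganglion cell markers in 3 of 11 (0.71), and Müller glia markers were lower in 3 of 10 (-0.95). Microglia and macrophage markers were lower in 3 of 8 (-1.43) and those of endothelium and pericytes in 2 of 9 (-0.86). Horizontal cell markers were higher in 2 of 3 (1.38) and bipolar markers in 1 of 11 (0.12), pigment epithelium had 1 of 3 lower, and rods and astrocytes had 0 called. Of all genes, 9.78% were called higher and 5.34% lower. No list had a called marker inside the third stretch. There the medians of Müller glia, bipolar and rod markers changed sign, to 0.97, -0.17 and 0.59. Cones gave 0.35, ganglion cells 0.25, horizontal cells 0.24 and pigment epithelium 0.32. Microglia and macrophages gave -0.23 (1 tested), endothelium and pericytes -0.59 and astrocytes -0.03. The part of these shifts in the Kcn results was not tested.

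Against DBA/2J at 4 months, where both groups lie in the third stretch, nicotinamide libraries of 9 months differed in 4 of 55 Kcn genes (7.27%), 3 higher and 1 lower, where 1.54% of 13024 genes were called, 0.791% as higher and 0.745% as lower. Kcnj2 (Kir2.1) ran from 0.732 to 7.51 (median 3.11) at 4 months and from 4.02 to 15.3 (median 8.13) with nicotinamide, a change of 1.06 ± 0.26 (limma adjusted p = 0.0417). Kcnj14 ran from 19.6 to 41.2 (median 28.8) and from 35.4 to 72.2 (median 42.7), a change of 0.70 ± 0.16 (limma adjusted p = 0.0361). Kcnh6 (Erg2) gave 0.46 ± 0.11 (limma adjusted p = 0.0408) and Kcnip2, at a median of 3.43 against 5.998, -0.60 ± 0.15 (limma adjusted p = 0.0462). All 4 ranges overlapped between groups. DESeq2 on recovered reads called 8 beside 3.83% of all genes, and limma on reads scaled to the library total 1 beside 1.1%. The calls were near the threshold: in 17 fits that each left out 1 library, Kcnj14 passed in 9, Kcnh6 in 6, Kcnj2 in 4 and Kcnip2 in 3, and the number of Kcn genes called ran from 0 to 7. Kcna1, Kcna4, Kcnc2 and Kcnd3 had 0.69, 0.42, 0.52 and 0.45 and were not called. Rod and cone markers were each higher in 2 (of 11 and 9 tested). Horizontal cells had 1 of 3 higher (median 1.01), and endothelium with pericytes 1 of 8 lower (-0.58). The part of these shifts was not tested.

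Between the strains at 4 months no Kcn gene passed. Of 54 tested, 16 had an unadjusted p under 0.05, where 0.25% of 12804 genes passed and 13.5% had such a p (limma). On recovered reads edgeR called 0 Kcn genes, and DESeq2 5 beside 1.87% of all genes. The smallest p belonged to Kcnn3, which ran from 1.05 to 6.299 (median 2.78) in DBA/2J and from 0.431 to 3.21 (median 0.925) in D2-Gpnmb+, a difference of 0.95 ± 0.22 (limma adjusted p = 0.0541). Kcnk1, a leak channel, ran from 30.4 to 57.8 (median 40.7) in DBA/2J and from 10.8 to 41.2 (median 28.6) in D2-Gpnmb+, with 0.61 ± 0.17 (limma adjusted p = 0.131). Kcnh6 was lower in DBA/2J, from 20.6 to 30.2 (median 23.6) against a range from 22.95 to 53.97 (median 36.4), with -0.47 ± 0.13 (limma adjusted p = 0.101). All 3 pairs of ranges overlapped. Amacrine markers had a median of 0.60 with 0 of 8 called, and rod markers -0.50 with 0 of 11 called. Cone markers had 1 of 9 lower in DBA/2J, with a median of -0.60, and no other list had a called marker. The part of this in the Kcn results was not tested.

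At 9 months no Kcn gene passed between strains either, with 0 of 55 called and 5 at an unadjusted p under 0.05 (limma), where 0.0218% of 13755 genes passed and 13.2% had such a p. On recovered reads edgeR called 0, and DESeq2 2 beside 2.31% of all genes. Kcna2 ran from 8.27 to 64.2 (median 30.8) in DBA/2J and from 26.2 to 104 (median 62.8) in D2-Gpnmb+, a difference of -1.04 ± 0.27 (limma adjusted p = 0.106). Inside the third stretch DBA/2J libraries held 32, 64.2 and 29.8 and D2-Gpnmb+ libraries 73.5, 62.7 and 43.3, a difference of -0.56 ± 0.29, and the ranges overlapped through library 27. Kcnj14 gave 1.35 ± 0.46 (limma adjusted p = 0.186) over all libraries and 0.44 ± 0.22 inside the third stretch. Rod markers had a median of 1.23 over all libraries and of 0.12 inside the third stretch, with 0 of 11 called in both, and their part was not tested. Of the 52 Kcn genes tested inside the third stretch 0 passed and 5 had an unadjusted p under 0.05, while 0 of 12941 genes passed (0%) and 6.36% had such a p. Leaving out library 27 made Kcnc2 pass there, 1 of 38 genes that did, with -1.95 (limma adjusted p = 0.046).

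With age in D2-Gpnmb+ no Kcn gene passed in limma. Of 52 tested, 21 had an unadjusted p under 0.05, where 0.0232% of 12910 genes passed and 30.3% had such a p. The median was -0.42 over the Kcn genes and close to 0 over all genes, and inside the third stretch it was 0.13 with 0 of 59 called (all genes 0%) and 8 at an unadjusted p under 0.05 (all genes 4.68%). On recovered reads edgeR called 4 Kcn genes beside 11.8% of all genes, and DESeq2 5 beside 16.4%. Without library 13, 1 of the 3 older libraries of the third stretch, limma called 11 Kcn genes among 2061 of all genes, and without library 9, 14 or 15 it called 4 each among 1032, 1067 and 1195. Kcne2 ran from 135 to 199 (median 159) at 4 months and from 24.4 to 145 (median 92.8) at 9 months, a change of -1.16 ± 0.30 (limma adjusted p = 0.0741). Its 3 older libraries of the third stretch read 136, 134 and 130.4, the first just inside the young range and the other two below it, and gave -0.25 ± 0.12. Kcnrg gave -1.02 ± 0.29 (limma adjusted p = 0.075) and Kcnip2 -0.85 ± 0.30 (limma adjusted p = 0.0888), and in the third stretch -0.33 and -0.38. The Shaker-type genes that fell in DBA/2J read 18.8, 18.7 and 11.4 for Kcna1 and 48.3, 34.7 and 43.7 for Kcna4 in these 3 libraries, inside the ranges of the 4-month D2-Gpnmb+ group. In the first stretch Kcna1 ran from 0 to 0.394 and Kcna4 from 1.89 to 2.86. Amacrine markers had a median of -1.34 over all libraries and 0.32 inside the third stretch, with 0 called in both. The 4 first-stretch libraries stood apart in other markers too, with Müller glia sums of 11203 to 15887 against 1833 to 3721 in the other 5 of the group, and endothelium and pericyte sums of 1175 to 1552 against 136 to 313. The Müller list had a median of 1.09 over all libraries and -0.15 inside the third stretch, with 0 of 10 called in both, and its part was not tested.

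The change with age was tested for a difference between the strains, and 1 of 60 Kcn genes passed (1.67%), lower in DBA/2J, where 0.375% of 14150 genes passed and 0.247% were lower. Kcna2 had medians of 61 and 30.8 at 4 and 9 months in DBA/2J and of 46.8 and 62.8 in D2-Gpnmb+. The difference of the log2 changes, DBA/2J minus D2-Gpnmb+, was -1.64 ± 0.38 (limma adjusted p = 0.0442). Within the third stretch it was -1.15 ± 0.46 (limma adjusted p = 0.497) and with the stretch as a covariate -1.35 ± 0.37 (limma adjusted p = 0.0882), where 0 Kcn genes passed beside 0.0848% of all genes. The call held in 31 of 54 fits that each left out 1 library, with values from -1.79 to -1.51. It was lost without D2-Gpnmb+ library 1 (-1.54, limma adjusted p = 0.104) and without library 8 (-1.63, limma adjusted p = 0.062) of 9 months, the 2 that went against their labels or their group, and also without the first stretch (-1.51, limma adjusted p = 0.072). DESeq2 on recovered reads called 3 Kcn genes beside 2.07% of all genes, and limma on reads scaled to the library total 2 beside 1.52%. Kcnn3 and Kcnk1 came next with -1.44 ± 0.41 (limma adjusted p = 0.0815) and -1.03 ± 0.32 (limma adjusted p = 0.11), and -0.5 and -0.62 inside the third stretch. Without D2-Gpnmb+ library 9 of 9 months 5 Kcn genes passed, among 239 of all genes. In the third stretch 0 of 65 Kcn genes passed, where 0.0774% of all genes did. Of 8 amacrine markers 1 was lower in this test, with a list median of -1.21 over all libraries and of -1.31 inside the third stretch, and its part was not tested.

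Kcn genes differed in which retinal markers they followed from library to library. This was measured inside 1 group and 1 stretch, the 16 DBA/2J water libraries of 9 months in the second stretch, for the 32 Kcn genes with a mean of at least 5 there and the summed values of 11 marker lists. These libraries are not uniform. In column order, the microglia and macrophage sum was 54.8 to 192 in libraries 7 to 18 and 5.89 to 22.4 in libraries 19 to 25. The permutations took all 16 libraries as exchangeable, and the part of this step in the correlations was not tested. Of 352 correlations, 60 passed a Benjamini-Hochberg adjusted permutation p of 0.05 over all 352, 43 positive and 17 negative. Kcnv2 and Kcnj14 followed the rod sum, with Pearson r of 0.98 and 0.96 and Spearman rho of 0.96 and 0.95 (n = 16, two-sided permutation p = 1e-05 for each r and each rho, where 1e-05 is the smallest that 100000 permutations can give, and adjusted p = 0.00032 for each r). Without the 2 libraries farthest from the median rod sum, r was 0.98 and 0.96. The rod sum itself ran from 3141 to 69277 (median 22444) in these libraries.

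Kcnj10 followed the Müller glia sum (r = 0.96, rho = 0.94, permutation p = 1e-05 for both, adjusted p = 0.00032), with r = 0.94 without the farthest libraries. It also followed the sum of endothelium and pericyte markers (r = 0.91, rho = 0.91, permutation p = 1e-05 for both), and these 2 sums had a Pearson r of 0.91 with each other. Kcnma1, Kcnh5 and Kcnmb2, the last of them a beta subunit of Kcnma1, followed the bipolar cell sum with r of 0.94, 0.93 and 0.92 (rho 0.94, 0.93 and 0.91, permutation p = 1e-05 for each r and 1e-05, 1e-05 and 2e-05 for rho). Without the farthest libraries r was 0.94, 0.92 and 0.88. The horizontal cell sum, 99.04% of it from Prox1, had a Pearson r of 0.97 with the bipolar sum and is not separate from it. Rod and bipolar sums had a Pearson r of -0.80. Of the 32 Kcn genes, 12 were negatively correlated with the rod sum, among them Kcnj9 (r = -0.89, rho = -0.79, permutation p = 6e-05 and 0.00044, adjusted p = 0.00151).

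The amacrine sum was followed by Kcna1 (r = 0.82, rho = 0.76, permutation p = 0.00012 and 0.001), Kcnd3 (r = 0.82, rho = 0.76, permutation p = 0.00011 and 0.00109), Kcnab1 (r = 0.77, rho = 0.66, permutation p = 0.00044 and 0.00675) and Kcna2 (r = 0.68, rho = 0.67, permutation p = 0.00419 and 0.0056). Each pair of p belongs to r and then rho, and the adjusted p for r were 0.00235, 0.00228, 0.00534 and 0.0314. Without the farthest libraries r was 0.67, 0.74, 0.59 and 0.60. All 4 are among the genes that fell with age over all libraries, but so are Kcnc1 and Kcnj9, which did not pass with the amacrine sum. How many of the 32 genes fell with age was not counted, so this overlap has no share to be set against. Kcna4, Kcnb2, Kcnc2 and Kcnip1 had a mean under 5 in these 16 libraries and were not correlated. With ganglion cell markers only Kcnj10 had a positive correlation that passed (r = 0.63, rho = 0.66, permutation p = 0.00849 and 0.00698, adjusted p = 0.0498), and Kcne2 a negative one (r = -0.70, rho = -0.67, permutation p = 0.00231 and 0.00551, adjusted p = 0.0208). The ganglion cell sum, 40.37% of it from Thy1, had a Pearson r of 0.70 with the Müller glia sum, which Kcnj10 also followed. The genes named here were picked by the size of r after the values were seen, and marker sums, like the Kcn values, share each library's scaling and depth.

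**Figure D4:**
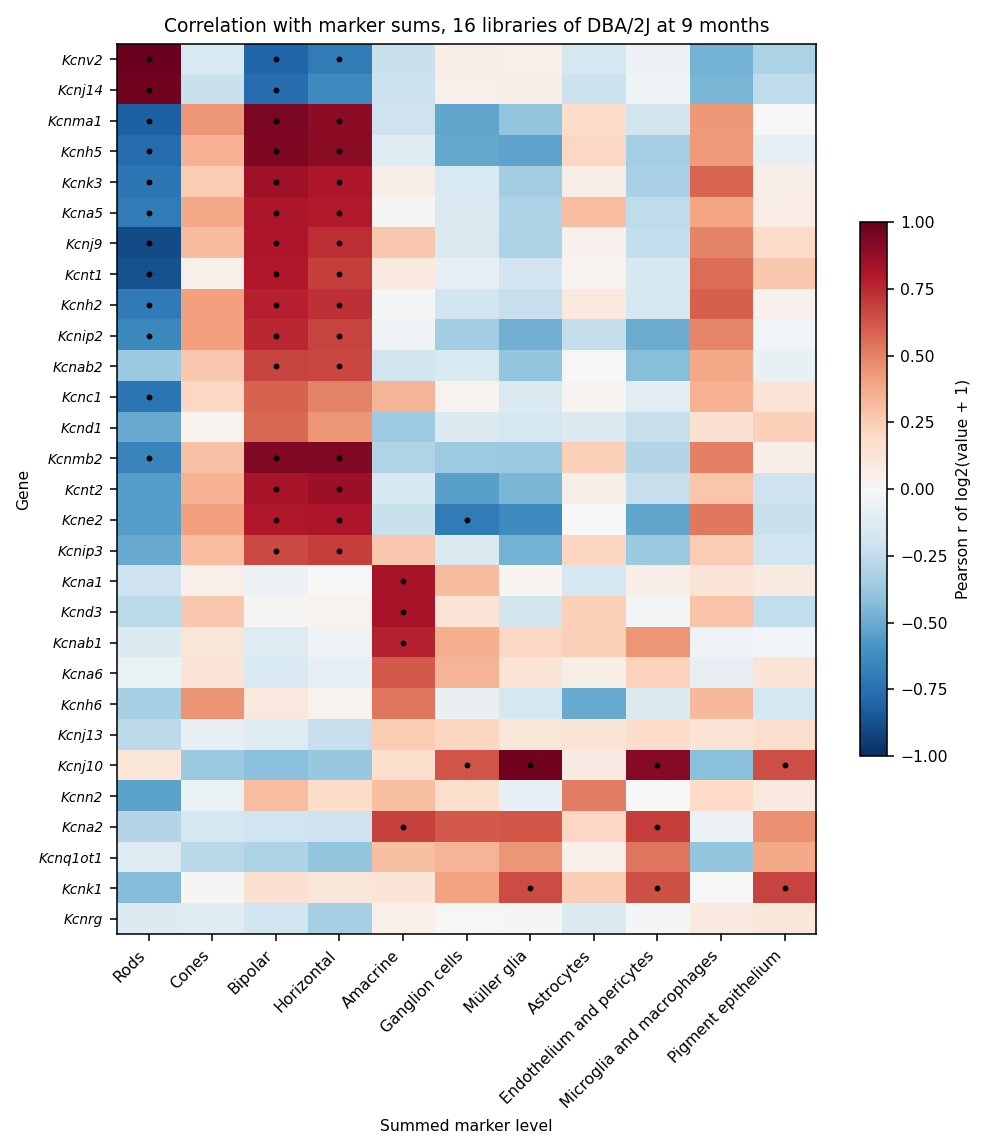
Pearson r between log2 of the value plus 1 of 29 Kcn genes (rows) and the summed level of 11 marker lists (columns) over 16 DBA/2J water libraries of 9 months in the second stretch; dots mark an adjusted permutation p under 0.05. Kcnv2 and Kcnj14 stand out with rods, Kcnma1, Kcnh5 and Kcnmb2 with bipolar cells, Kcna1, Kcnd3, Kcnab1 and Kcna2 with amacrine cells, and Kcnj10 with Müller glia.

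Genes that anchor or modulate these channels were counted from a list of 25, of which 24 were analysed. With age in DBA/2J 9 of 24 were lower and 1 higher over all libraries, where 13.2% of all genes were lower and 9.25% higher. Inside the third stretch 0 were called, where 0.263% of all genes were. The list median was -0.24 over all libraries and -0.04 inside the third stretch. Those that fell included the fibroblast growth factor homologues Fgf14 and Fgf12, which bind sodium channels, with -1.49 ± 0.42 and -1.09 ± 0.27. Cntnap2 and Cntn2, which hold Kcna1 and Kcna2 beside the node of Ranvier, gave -0.77 ± 0.23 and -0.77 ± 0.27, and Dpp6, a Kcnd partner, -0.64 ± 0.22. The gene that rose was Abcc8, the sulphonylurea receptor of ATP-sensitive channels, with 0.54 ± 0.19. With nicotinamide 5 of 24 were higher and 1 lower, where 9.78% of all genes were higher and 5.34% lower. Fgf14 rose the most with 2.21 ± 0.47, and Abcc8 was lower with -0.84 ± 0.23. The list median was 0.33 over all libraries and -0.04 in the third stretch, again with 0 called there. Of 11 genes of sodium-potassium pumps and potassium-chloride transport, 3 were higher and 2 lower with age, and 1 higher and 3 lower with nicotinamide, with 0 in the third stretch. The pump subunit Atp1b1 gave -2.31 ± 0.48 with age and 3.19 ± 0.52 with nicotinamide. All single-gene changes in this paragraph are over all libraries.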

How the data were processed

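RNA of sorted retinal cells was sequenced in 61 libraries of 5 groups. Per the submitters' processing notes, the authors used TopHat2 2.0.7, Bowtie2 2.0.6 and HTSeq on mm10. The values they deposited are a normalised signal per gene, whose scaling to the library size is not given in the sources used here. All values (100% in each library, within 0.05 of a whole number) could be turned back into whole reads, which gave the depth per library. Columns were matched to groups by their names, and no column was matched to a single sample. Of 15171 rows, 22 whose symbols had become dates were left out.

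The log2 of the value plus 1 was tested with limma 3.58.1 (R 4.3.3; trend, robust), for genes that reached 1 in a number of libraries equal to the smallest group, with Benjamini-Hochberg adjustment over all genes tested. The 7 comparisons were refitted with pseudocounts of 0.5 and 2, without the filter, on recovered reads scaled to the library total, with edgeR 4.0.16 and DESeq2 1.42.0 on recovered reads, without single libraries, inside the third stretch and with the stretch as a covariate. Fits without the first stretch, and without each library for the difference in age change between strains, were added after seeing the data. The limma fit was tried on simulated data only for the strains at 4 months and for age in D2-Gpnmb+. That simulation held no difference between stretches and does not bear on the other comparisons. Gene positions and exon lengths are from GENCODE M21 on GRCm38, matched for all 68 Kcn genes.

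The Kcn genes, the marker and partner lists and the tests were chosen with earlier results of these data known. Genes were named where they passed, or, past 20 calls, as the 10 largest changes in each direction whose higher group had a mean of 5 or more; with fewer than 3 calls the 3 smallest p were named. Other Kcn genes are named to complete a subfamily, and genes in the marker correlations were chosen after their values were seen. A few Kcn genes are counted in the totals but not reported here by name or drawn.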

Additional observations from a re-analysis of the deposited data

Results flagged for a closer look

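For the 21 named Kcn genes, 84 groups of 7 to 10 libraries were checked for a library far from the rest, and 7 held one. The group of 25 DBA/2J water libraries of 9 months was not checked. The cut-offs flag about 1 in 20 groups only where values are independent and normally distributed. These values were not logged, all 7 flagged ones were high, and genes of a library can move together. The rate of 1 in 20 is therefore no measure of chance here. In D2-Gpnmb+ at 9 months, library 8 had 31.4 for Kcnc2 with the nearest library at 14.9, and 22.02 for Kcnip1 with the nearest at 9.77. The same library had an Xist value of 7.93. Kcnj14 was 103 in library 9 of that group (nearest 50.5), Kcnj5 was 4.66 in library 13 (nearest 1.24) and Kcnn3 was 8.39 in library 1 (nearest 3.84). Kcnj2 was 15.3 in nicotinamide library 2 (nearest 8.88), and Kcnrg was 19.4 in DBA/2J library 8 of 4 months (nearest 9.96). Why these libraries stand apart was not tested.

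The change of Kcna2 with age differed between DBA/2J and D2-Gpnmb+ by -1.64 on the log2 scale in the test of that difference. It passed over all libraries and in neither fit that took the stretch of columns into account.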

How the results depend on the processing

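Pseudocounts of 0.5 and 2 and no filter left each of the 7 counts of called Kcn genes within 1.5 times the reported one. Age in DBA/2J gave 23 calls and nicotinamide 25, and with the stretch as a covariate or inside the third stretch both gave 0. For these 2 comparisons both fits give the same fold changes and are not separate checks of them. Kcnd3 reversed with age to 0.44 in this shared estimate. The difference in age change between strains gave 0 in both fits as well, 0 without the first stretch (135 of all genes), 2 on reads scaled to the library total (215) and 3 with DESeq2 (293), against 53 of all genes called in the reported fit. Between strains at 4 months reads scaled to the library total gave 1 and DESeq2 5, and at 9 months DESeq2 gave 2. Age in D2-Gpnmb+ gave 4 with edgeR and 5 with DESeq2. Nicotinamide against 4 months gave 1 on reads scaled to the library total (143 of all genes) and 8 with DESeq2 (499). The cause was not tested. On reads scaled to the library total the median of all genes moved by 0.23 between strains at 4 months, by 0.32 with age in D2-Gpnmb+ and by -0.32 for the difference in age change.

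In fits over all libraries, none of the 25 DBA/2J water libraries of 9 months was left out, except for the difference in age change. Leaving out 1 library of the other groups at a time gave 19 to 24 calls for age in DBA/2J and 21 to 24 for nicotinamide. It gave 0 to 1 between strains at 4 months and at 9 months, 0 to 11 for age in D2-Gpnmb+, 0 to 5 for the difference in age change and 0 to 7 for nicotinamide against 4 months, where 7 came without nicotinamide library 8. Inside the third stretch only water libraries of 9 months were left out. That gave 0 to 4 for age in DBA/2J, 0 to 8 for nicotinamide, 0 to 1 between strains and 0 for age in D2-Gpnmb+. With DESeq2, Kcna2 and Kcnj14 passed between strains at 9 months (adjusted p = 0.0212 and 0.0415), and Kcne2 and Kcnrg with age in D2-Gpnmb+ (adjusted p = 0.0173 and 0.0337).

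Correlations with marker sums gave 60 calls, 42 without the 2 farthest libraries and 70 on reads scaled to the library total. Genes with means under 1 rest on a few reads per library, so small changes in them were not detectable at this depth. No paired analysis was possible because the labels give each sample its own number and the columns are not tied to samples.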
